A study of Canis lupus familiaris with 9 samples.

Results

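Transcripts of 8 receptors that guide T cells through the body were followed in canine CD4+ peripheral T cell lymphoma (PTCL), a cancer of mature T cells, and in normal CD4+ T cells. The 8 genes were the chemokine receptors CCR9, CCR4, CXCR3, CCR7, CCR6, CXCR5 and CXCR4 and the sphingosine 1-phosphate receptor S1PR1. They were taken by gene symbol from the 28008 genes in the table, and each of the 8 symbols was found on a single row. In lymphomas CCR9 and CCR4 were higher, while CXCR5, S1PR1, CCR6, CCR7 and CXCR4 were lower than in control T cells, and CXCR3 did not pass the test.

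Chemokine receptors are G protein-coupled receptors at the cell surface, and a T cell moves towards the tissue whose chemokines its receptors recognise. CCR7 leads naive T cells into lymph nodes, CXCR5 leads follicular helper cells into B cell follicles, and CCR9, CCR4, CCR6 and CXCR3 direct cells to gut, skin or inflamed sites. S1PR1 works in the opposite sense, since it senses sphingosine 1-phosphate (S1P) in blood and lymph and lets T cells leave lymphoid organs.

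RNA sequencing covered 9 libraries. Of these, 3 were lymphomas of Boxers, from a castrated male aged 6 years, a spayed female aged 8 and a castrated male aged 6. A further 3 were lymphomas of other breeds, from a spayed female Cavalier King Charles Spaniel aged 3, a spayed female Rhodesian Ridgeback aged 4 and a castrated male Collie aged 11. The 3 controls were sorted CD4+ T cells of healthy female hounds aged 1 year, none of them neutered. Disease therefore cannot be told apart from breed, age, neutering and sorting in comparisons with the controls. The labels describe sorting for the controls and give neither a tissue nor a sort for the lymphomas. Nothing states that libraries with identical details came from different dogs, so a p-value here reflects only variation among the 9 libraries. In bulk RNA, fewer cells of a type and less RNA per cell cannot be told apart.

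The libraries held 11710623 to 18488468 reads. Values are normalised reads, that is, reads divided by 1 size factor per library, and they compare libraries but not genes of different length. Fold changes are differences of log2(value + 1), which understates the change of low genes, and a gene passed at a Benjamini-Hochberg adjusted p under 0.05 by limma over all genes tested. The T cell gene CD3E lay between 13794 and 22222 normalised reads in lymphomas and between 19717 and 21357 in controls. The summed level of the 9 T cell genes found of a list of 10 ranged from 58685 to 103761 in lymphomas and from 68050 to 71053 in controls. CD4 itself was not analysed here. Monocyte and macrophage genes summed to 765 to 18252 normalised reads in lymphomas and 112 to 191 in controls, and 6 of the 7 tested rose; their part in the receptor values was not tested. CD8A, a marker of the other main T cell lineage, was at 1089 normalised reads in other-breed lymphoma 1, at 5.95 to 70.0 in the other 5 lymphomas and at 13.9 to 33.8 in controls.

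**Figure D1:**
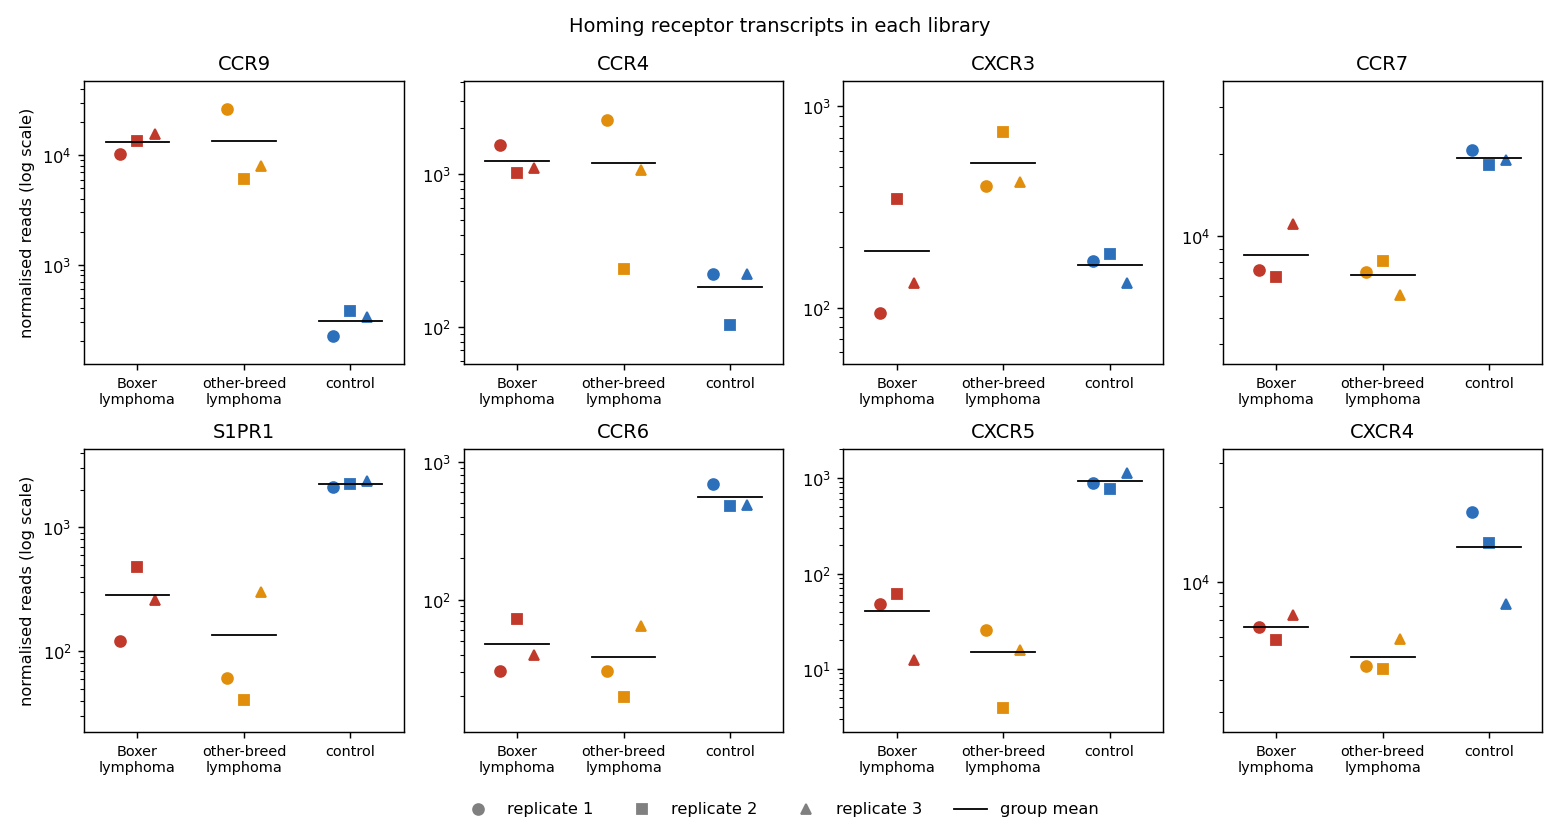
Normalised reads (log scale) of the 8 receptor genes in each of the 9 libraries. Each point is a library, its shape the replicate number, and the bar is the group mean. For CCR9 the lymphomas lie between 6112 and 26420 and the controls between 222 and 375, whereas for CXCR5 the lymphomas lie between 3.94 and 61.6 and the controls between 760 and 1118.

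The first comparison set the 6 lymphomas against the 3 controls. Of the 8 receptors 2 rose, 5 fell and 1 did not pass. Over all 15977 genes tested, 19.4% passed upwards and 15.7% passed downwards. The same shares are the background for the counts of list genes in this comparison. The values of both groups did not overlap for these 7 receptors, and the same held upwards for 18.5% and downwards for 17.2% of all genes. The median log2 fold change was -1.26 over the 8 receptors and 0.05 over all genes tested.

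CCR9 is the receptor of CCL25, a chemokine of thymus and small intestine. It was at 10215, 13604 and 15476 normalised reads in Boxer lymphomas 1 to 3 and at 26420, 6112 and 7943 in other-breed lymphomas 1 to 3, against 222, 375 and 331 in controls 1 to 3. Every lymphoma therefore exceeded every control by more than an order of magnitude. The means were 13295 ± 7306 in lymphomas (SD, n = 6) and 309 ± 78.4 in controls (SD, n = 3), and the log2 difference was 5.29 ± 0.40 (SE) with a limma adjusted p = 2.84e-05. That placed CCR9 at rank 205 from the top among the 15977 genes. The increase passed under each of 22 alternative settings, with log2 fold changes between 5.06 and 5.81.

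The only ligand of CCR9 in the list, CCL25, was nearly absent from all libraries, at 0 to 7.58 normalised reads in lymphomas and 0 to 5.56 in controls, and was too low to be tested. CCR9 is also known from developing T cells in the thymus, and the markers of that stage were examined. RAG1, an enzyme of receptor gene rearrangement, had 0 reads in all 9 libraries. RAG2, its partner, reached 3.40 normalised reads in the lymphomas and 1.36 in the controls, and PTCRA, the pre-T cell receptor chain, reached 2.55 in the lymphomas and was at 0 in the controls. DNTT, the nucleotide-adding enzyme of rearrangement, was at 2277 in Boxer lymphoma 2 and 179 in Boxer lymphoma 3, at 1.70 to 70.0 in the other 4 lymphomas and at 42.6 to 64.2 in controls. Boxer lymphomas 2 and 3, with the highest DNTT, had more CCR9 than Boxer lymphoma 1, and other-breed lymphoma 1, with 35.3 normalised reads of DNTT, had the most CCR9. The part of a thymocyte-like stage in the CCR9 values was not tested.

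CCR4, the receptor of CCL17 and CCL22, is found on type 2 helper, regulatory and skin-homing T cells. Boxer lymphomas 1 to 3 had 1560, 1018 and 1092 normalised reads and other-breed lymphomas 1 to 3 had 2263, 241 and 1072, against 222, 102 and 223 in controls 1 to 3. Other-breed lymphoma 2 thus stood just above controls 1 and 3, and the other 5 lymphomas stood well apart from them. CCR4 rose by 2.54 ± 0.59 on the log2 scale (SE, limma adjusted p = 0.00839). Without control 2 the log2 fold change was 2.16 and the adjusted p = 0.0506, and when age entered the model these were 2.39 and 0.128.

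CXCR3, the X-linked receptor of the interferon-induced chemokines CXCL9, CXCL10 and CXCL11, marks type 1 helper cells. It had 94.3, 347 and 133 normalised reads in Boxer lymphomas 1 to 3 and 400, 742 and 421 in other-breed lymphomas 1 to 3, against 171, 186 and 133 in controls 1 to 3. Boxer lymphomas 1 and 3, from male dogs, lay below all 3 controls, Boxer lymphoma 3 only barely, and the other 4 lymphomas, from 3 females and 1 male, lay above them. Over the 6 lymphomas the log2 fold change was 0.82, with a 95% interval from -0.46 to 2.10, and it did not pass (limma adjusted p = 0.288). With sex as a covariate it was 1.53 (adjusted p = 0.0587).

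CCR7, which binds CCL19 and CCL21 and admits T cells to lymph nodes, fell in every lymphoma. Boxer lymphomas 1 to 3 had 7524, 7049 and 11061 normalised reads and other-breed lymphomas 1 to 3 had 7394, 8109 and 6062, against 20734, 18291 and 19079 in controls 1 to 3. The log2 fold change was -1.32 ± 0.19 (SE, limma adjusted p = 7.35e-04), and CCR7 stayed at 6062 normalised reads or more in every lymphoma. The receptor is typical of naive and central memory cells. Spread among the lymphomas was small, with an SD of 0.29 on the log2 scale against a median of 0.56 over all genes tested.

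S1PR1 fell far more, and unevenly. It had 121, 479 and 258 normalised reads in Boxer lymphomas 1 to 3 and 61.2, 40.2 and 302 in other-breed lymphomas 1 to 3, against 2125, 2223 and 2384 in controls 1 to 3. The controls were tight, with an SD of 0.08 on the log2 scale, while the lymphomas spread by 1.39. The log2 fold change was -3.89 ± 0.70 (SE), with a limma adjusted p = 0.00240.

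S1PR1 is also abundant in vascular endothelium, and markers of that tissue differed between the libraries. The 7 endothelial genes found of a list of 8 summed to 1465, 2343 and 4281 normalised reads in Boxer lymphomas 1 to 3, to 94.2, 100.2 and 6396 in other-breed lymphomas 1 to 3 and to 310 to 691 in controls, and 3 of the 7 rose. Other-breed lymphomas 1 and 2 had the lowest endothelial sums of the 6 lymphomas and also the lowest S1PR1. At the upper end the order differed. Other-breed lymphoma 3, with the highest sum, had 302 normalised reads of S1PR1, and Boxer lymphoma 2 had the most S1PR1, at 479. Most of the control sums was KDR, a growth factor receptor, at 262 to 626 normalised reads. CDH5, the cadherin of vessel walls, was at 1.18 and 6.31 in other-breed lymphomas 1 and 2 and at 0 to 0.826 in controls. TIE1 was at 0 in other-breed lymphomas 1 and 2 and in control 1. The part of endothelial cells in the remaining S1PR1 reads was not tested. Without other-breed lymphomas 1 and 2 the log2 fold change of S1PR1 was -3.11 and it still passed.

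CCR6, the receptor of CCL20 on type 17 helper and memory cells, fell to 30.6, 73.0 and 39.6 normalised reads in Boxer lymphomas 1 to 3 and to 30.6, 19.7 and 64.7 in other-breed lymphomas 1 to 3, against 688, 480 and 487 in controls 1 to 3. No lymphoma came near the lowest control. The log2 fold change was -3.77 ± 0.43 (SE, limma adjusted p = 2.19e-04).

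CXCR5, which answers to CXCL13, had the largest decrease of the 8 receptors. It was at 48.4, 61.6 and 12.5 normalised reads in Boxer lymphomas 1 to 3 and at 25.9, 3.94 and 15.9 in other-breed lymphomas 1 to 3, against 883, 760 and 1118 in controls 1 to 3. Its log2 difference was -5.41 ± 0.71 (SE, limma adjusted p = 4.78e-04), which placed it at rank 39 from the bottom among the 15977 genes.

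B cells also carry CXCR5, so their markers were read beside it. The 6 B cell genes found of a list of 7 had sums of 450 to 6191 normalised reads in lymphomas and 1341 to 1542 in controls, with none at 0 in any library. By limma 0 of the 6 passed, and the smallest adjusted p was that of CD79B, at 0.0564. The lymphoma with the highest B cell sum, other-breed lymphoma 1, had 25.9 normalised reads of CXCR5. Follicular chemokine CXCL13 was at 2.35 to 514 in lymphomas and 13.2 to 35.5 in controls and did not pass (limma adjusted p = 0.475).

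CXCR4, the receptor of CXCL12 that retains cells in bone marrow and lymph node, had 6554, 5803 and 7367 normalised reads in Boxer lymphomas 1 to 3 and 4567, 4459 and 5866 in other-breed lymphomas 1 to 3, against 19042, 14359 and 8126 in controls 1 to 3. Here the lymphomas were alike and the controls were not, with SDs of 0.29 among lymphomas and 0.63 among controls on the log2 scale. CXCR4 fell by 1.20 ± 0.26 on that scale (SE, limma adjusted p = 0.00668). When age entered the model the adjusted p was 0.0503.

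The order of the 3 controls recurred in 2 genes of cell activation, picked after their values were seen. It also recurred in genes of other kinds. Examples are the integrin chain ITGA4 (14864, 11903 and 10419 normalised reads in controls 1 to 3) and the transcription factor HIF1A (2655, 2219 and 2046). The share of all genes with this order was not computed. RGS1, a brake on G protein signalling, had 22278, 16387 and 7448 normalised reads in controls 1 to 3, and CD69, an early activation antigen that draws S1PR1 from the surface, had 8886, 5759 and 3114. Both were lower in lymphomas, with log2 differences of -4.47 ± 1.03 for RGS1 (SE, limma adjusted p = 0.00836) and -2.09 ± 0.50 for CD69 (adjusted p = 0.00967). Other-breed lymphoma 3 came close to control 3 in both, with 6887 normalised reads of RGS1 and 2953 of CD69. The remaining lymphomas had 171 to 1276 of RGS1 and 519 to 2098 of CD69. The part of this variation among controls in the CXCR4 difference was not tested. Without control 1, which had the most CXCR4, the log2 fold change of CXCR4 was -0.93 and passed (limma adjusted p = 0.0383).

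Next, 2 comparisons took the Boxer and the other-breed lymphomas separately against the same 3 controls, which both share. In Boxer lymphomas 2 receptors rose and 5 fell, beside 21.5% of 15155 genes upwards and 17.9% downwards. In other-breed lymphomas 2 rose and 5 fell, beside 15.5% of 14631 genes upwards and 14.2% downwards. The 2 that rose were CCR9 and CCR4 in Boxers, and CCR9 and CXCR3 in other breeds. Without overlap between the groups, Boxer lymphomas were higher in 2 receptors and lower in 5, beside 28.5% and 26.3% of all genes. Other-breed lymphomas were higher without overlap in 3 and lower in 5, beside 24.7% and 24.2%.

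CCR9 had log2 fold changes of 5.41 in Boxer and 5.16 in other-breed lymphomas. For CCR7 these were -1.21 and -1.44, for CCR6 -3.58 and -3.96, for S1PR1 -3.18 and -4.61, and for CXCR5 -4.71 and -6.12. All 5 receptors passed in both comparisons. CXCR4 passed at -0.996 in Boxer lymphomas (limma adjusted p = 0.0365) and at -1.41 in other-breed lymphomas (adjusted p = 0.0165). The Boxer call of CXCR4 was lost without control 1 (adjusted p = 0.111), control 2 (0.121), or Boxer lymphoma 1 (0.0670), 2 (0.0882) or 3 (0.0548). That of the other breeds was lost without control 1 (0.0511) or control 2 (0.0699).

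CCR4 rose by 2.80 in Boxer lymphomas (limma adjusted p = 0.00102). In other-breed lymphomas its log2 fold change was 2.27 and did not pass (adjusted p = 0.0635), and without other-breed lymphoma 2 it was 3.17 and passed (adjusted p = 0.00545). It also passed with edgeR (2.74, adjusted p = 0.0383), with DESeq2 (2.73, adjusted p = 4.21e-04) and in a limma fit of all 3 groups (2.27, adjusted p = 0.0398), which makes 3 receptors higher in other breeds. For CXCR3 the call fell in the other group. Its log2 fold change was 0.02 in Boxer lymphomas (limma adjusted p = 0.982) and 1.62 in other-breed lymphomas, where it rose (adjusted p = 0.00884).

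**Figure D2:**
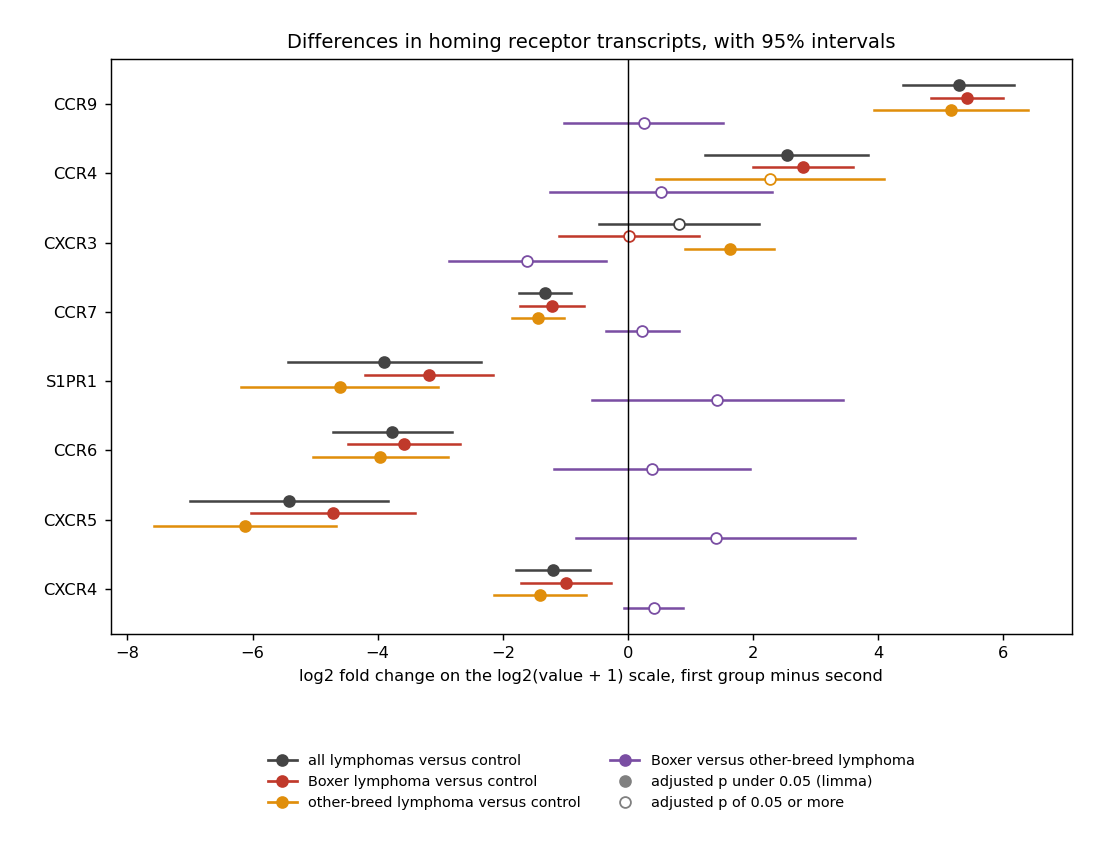
Log2 fold change (first group minus second) of each receptor in the 4 comparisons, with 95% intervals from limma. Filled points passed an adjusted p of 0.05 and open points did not. The CCR9 points of the 3 comparisons with controls lie between 5.16 and 5.41, while all 8 points of Boxer against other-breed lymphomas are open.

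The fourth comparison set Boxer against other-breed lymphomas directly, and 0 of the 8 receptors passed. Limma called 0 of 15112 genes in this comparison, edgeR 0, and DESeq2 44 upwards and 58 downwards, none of them among the 8. At an unadjusted p under 0.05 limma counted 753 genes, or 4.98%, and 1 receptor, CXCR3. Its group means were 192 ± 136 normalised reads in Boxer lymphomas and 521 ± 192 in other-breed lymphomas (SD, n = 3 each), with no overlap. Of all genes, 4.99% were higher and 5.7% lower in Boxers without overlap. The log2 fold change of CXCR3 was -1.61, with a 95% interval from -2.86 to -0.35 (limma unadjusted p = 0.0192, adjusted p = 0.881). The calls of CXCR3 and CCR4 against the controls therefore do not show that both lymphoma groups differ in these receptors.

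For the other 7 receptors the intervals between the lymphoma groups were wide. They ran from -0.58 to 3.44 for S1PR1 (log2 fold change 1.43), from -0.82 to 3.63 for CXCR5 (1.405) and from -1.25 to 2.30 for CCR4 (0.52). The narrowest were those of CXCR4, from -0.07 to 0.89 around 0.41, and CCR7, from -0.35 to 0.81 around 0.23. CCR9 had an interval from -1.03 to 1.53 around 0.25, and CCR6 from -1.19 to 1.95 around 0.38.

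Ordered by group mean, CCR9 ran from 13492 in other-breed lymphomas and 13099 in Boxer lymphomas down to 309 in controls, and both lymphoma groups overlapped. CCR4 ran from 1223 in Boxer lymphomas and 1192 in other-breed lymphomas to 183 in controls. CCR7, S1PR1, CCR6, CXCR5 and CXCR4 shared 1 order, with other-breed lymphomas lowest, Boxer lymphomas next and controls highest, and in each of these the 2 lymphoma groups overlapped. Variation among the 6 lymphomas was greatest for S1PR1 and CXCR5, with SDs of 1.39 and 1.34 on the log2 scale, and least for CXCR4 and CCR7, at 0.29 each.

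**Figure D3:**
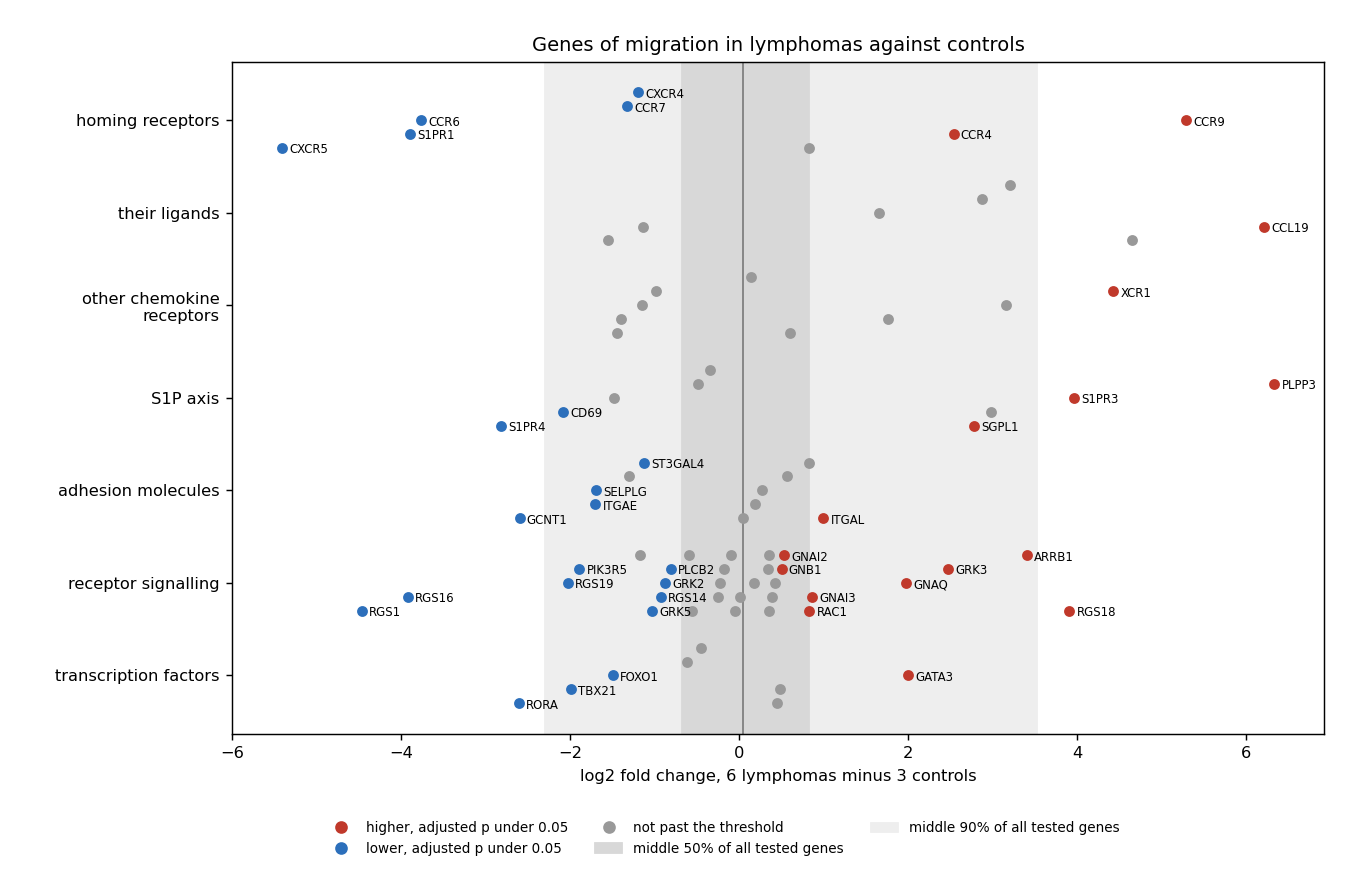
Log2 fold change (6 lymphomas minus 3 controls) of the tested genes of 7 lists of T cell migration, with 2 tested genes not drawn. Each point is a gene, named where it passed an adjusted p of 0.05, and the grey bands hold the middle 50% and 90% of all tested genes. CCR9 at 5.29 and CXCR5 at -5.41 lie outside the wider band.

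Chemokines that bind these receptors were uneven among the lymphomas. Of 11 listed ligands 8 were found and 7 tested, of which 1 rose and 0 fell, beside 19.4% and 15.7% of all genes. CCL19, a CCR7 ligand made by lymph node stroma, was at 26.3, 455 and 229 normalised reads in Boxer lymphomas 1 to 3 and at 27.1, 6.31 and 933 in other-breed lymphomas 1 to 3, against 0 to 0.826 in controls (limma log2 fold change 6.21 ± 1.41, SE, adjusted p = 0.00755). CXCL12, the ligand of CXCR4, ranged from 0 to 868 in lymphomas and from 0 to 1.36 in controls (adjusted p = 0.0895). The CCR4 ligands CCL17 and CCL22 reached 257 and 349 in other-breed lymphoma 3 and did not pass (adjusted p = 0.0807 and 0.0775).

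The median log2 fold change of the 7 tested ligands was 2.87, against 0.05 over all genes tested. In every control CCL19, CCL17, CCL22 and CXCL12 were below 10 normalised reads, the level needed for testing. They were tested only because lymphomas reached that level, which by itself favours a positive median. The 9 fibroblast and stroma genes summed to 5328, 2719 and 18874 normalised reads in Boxer lymphomas 1 to 3, to 190, 341 and 10833 in other-breed lymphomas 1 to 3 and to 28.9 to 108 in controls, and 7 of 9 rose. CXCL12 and the stroma sum were both highest in Boxer lymphoma 3, and CXCL12 was at 0 and 0.789 in other-breed lymphomas 1 and 2. The part of stromal cells in the ligand values was not tested.

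**Figure D4:**
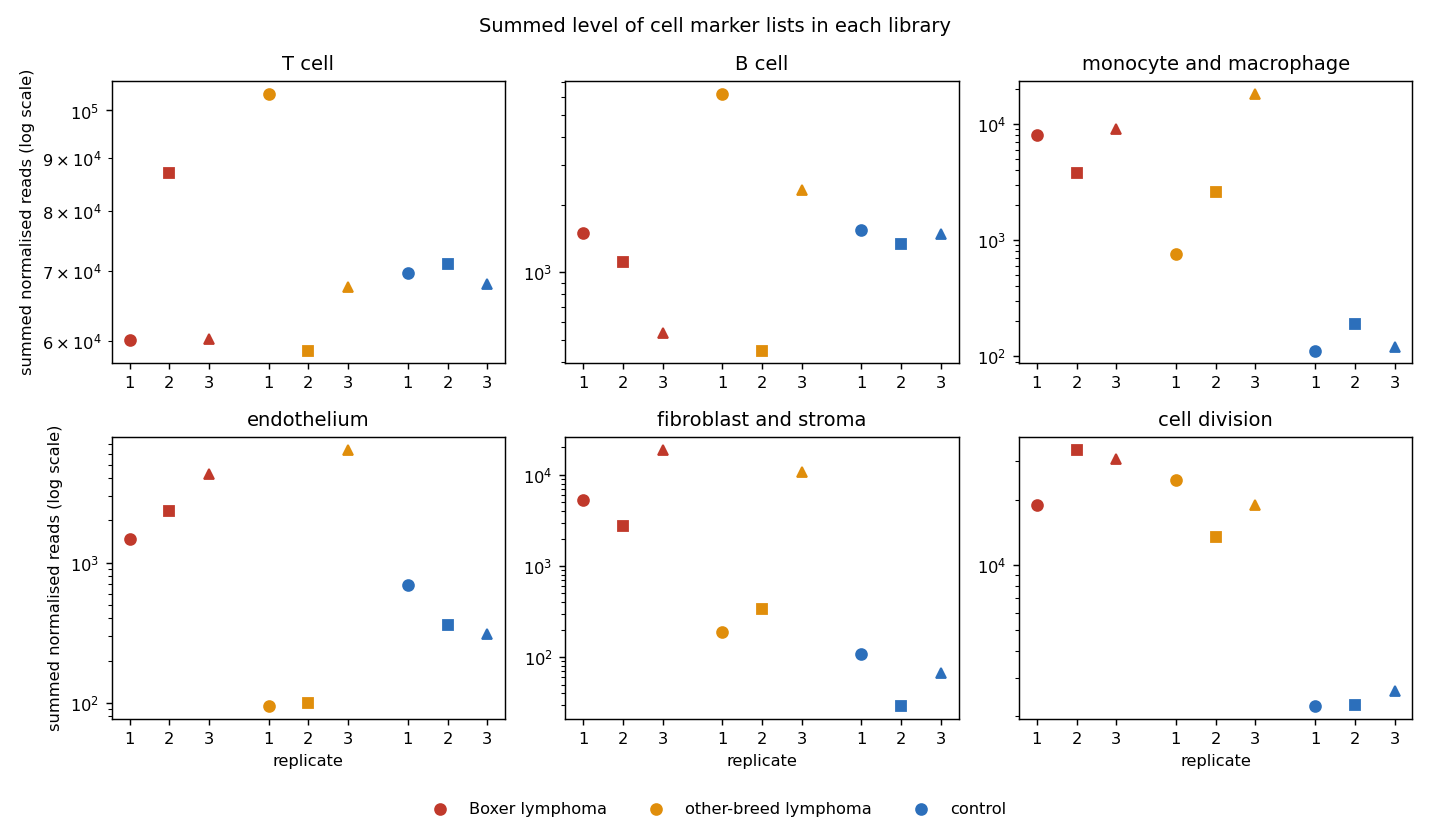
Summed normalised reads (log scale) of 6 lists of cell markers in each library, with replicates 1 to 3 of each group along the horizontal axis. The fibroblast and stroma sum of other-breed lymphomas 1 and 2 is 190 and 341, and that of the other 4 lymphomas is 2719 to 18874.

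Among other chemokine receptors, of 16 listed, 13 were found and 10 tested. Of these 1 rose and 0 fell, beside 19.4% and 15.7% of all genes. The median log2 fold change of the 10 was -0.43. The one that rose was XCR1, a receptor of cross-presenting dendritic cells, at 16.1 to 93.7 normalised reads in lymphomas and 0 to 5.46 in controls (4.42 ± 0.76, SE, limma adjusted p = 0.00201). CLEC9A, which marks the same dendritic cells, rose by 4.54. Of the 6 dendritic cell genes tested, which include XCR1 and CLEC9A themselves, 5 rose. Both XCR1 and CLEC9A were below 10 normalised reads in every control. They were tested only because lymphomas reached that level, which by itself favours a rise. CCR2, a receptor of monocytes and effector T cells, was at 15.3 to 63.7 normalised reads in lymphomas and 58.3 to 145 in controls, short of the threshold by limma (adjusted p = 0.0576).

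In the S1P axis 3 of 9 tested genes rose and 2 fell, beside 19.4% and 15.7% of all genes. The median log2 fold change of the 9 was -0.35. SGPL1, the lyase that degrades S1P, rose to 3464 ± 1690 normalised reads in lymphomas, against 465 ± 15.1 in controls (SD, n = 6 and n = 3), or by 2.78 ± 0.32 on the log2 scale (SE, limma adjusted p = 2.26e-04). PLPP3, a lipid phosphatase that dephosphorylates S1P outside the cell, rose by 6.33 and was at 27.1 to 451 in lymphomas and 0 to 1.65 in controls. S1PR3, a receptor common on vascular cells, was at 79.1 normalised reads in Boxer lymphoma 3, at 83.8 in other-breed lymphoma 3 and at only 2.35 and 3.15 in other-breed lymphomas 1 and 2, with Boxer lymphomas 1 and 2 in between, and had no reads in any control. It was at least 30.3-fold higher in lymphomas, from reads pooled over each group with 3 reads set for the controls. That is not a bound for each lymphoma. Boxer lymphoma 3 and other-breed lymphoma 3, where S1PR3 was highest, also had the highest endothelial and stroma sums, whose part in its level was not tested. S1PR4, a lymphocyte receptor of the same family, fell by 2.82 ± 0.94 (adjusted p = 0.0397), and CD69 fell as given above.

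Of the 12 adhesion molecules of homing, 1 rose and 5 fell, beside 19.4% of all genes upwards and 15.7% downwards. SELPLG, the P-selectin ligand, was at 424, 747 and 841 normalised reads in Boxer lymphomas 1 to 3 and at 913, 602 and 543 in other-breed lymphomas 1 to 3, against 1819, 2215 and 2407 in controls 1 to 3. Every lymphoma lay below every control (-1.70 ± 0.24, SE, limma adjusted p = 7.81e-04). ITGAE, an integrin of epithelial residence, fell by 1.70, and ST3GAL4, a sialyltransferase that helps build selectin ligands, fell by 1.13 on the log2 scale. ITGAL, the alpha chain of the integrin LFA-1, rose by 0.99. The alpha4 beta7 integrin acts with CCR9 in gut homing, and neither chain passed, with log2 fold changes of 0.82 for ITGA4 (adjusted p = 0.346) and 0.18 for ITGB7 (adjusted p = 0.756). ITGA4 was at 3901 normalised reads in Boxer lymphoma 3 and at 16400 to 38463 in the other 5 lymphomas, against 10419 to 14864 in controls.

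Signalling genes below the receptors went both ways. Of 31 tested, 8 rose, 8 fell and 15 did not pass, beside 19.4% of all genes upwards and 15.7% downwards. The median log2 fold change of the 31 was -0.05. GRK3, a kinase that desensitises activated receptors, rose by 2.47 ± 0.23 (SE, limma adjusted p = 6.94e-05), while its relatives GRK2 and GRK5 fell by 0.88 and 1.03 on the log2 scale. ARRB1, an arrestin, rose by 3.40, and the G protein subunits GNAQ (1.97), GNAI3 (0.86) and GNAI2 (0.53) rose. Among the RGS genes, which shorten G protein signals, RGS16 (-3.92), RGS19 (-2.03) and RGS1 fell and RGS18 (3.91) rose. PIK3R5, a regulatory subunit of the PI3K enzyme used by chemokine receptors, fell by 1.89.

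Of 14 transcription factors listed as regulators of these receptors in mouse or human T cells, 8 were tested. Of these 1 rose and 3 fell, beside 19.4% and 15.7% of all genes. GATA3, the type 2 helper factor found with CCR4, rose by 1.996 ± 0.23 (SE, limma adjusted p = 2.57e-04). FOXO1, which in mouse T cells maintains CCR7 and, through KLF2, S1PR1, fell to 541 ± 118 normalised reads in lymphomas, against 1500 ± 137 in controls (SD, n = 6 and n = 3). That was a log2 fold change of -1.495 ± 0.20 (adjusted p = 5.61e-04). TBX21, which in mouse cells drives CXCR3, fell by 1.99 (adjusted p = 0.0356). It was highest among the lymphomas in other-breed lymphoma 2, at 110 normalised reads, the library with the highest CXCR3. Other-breed lymphomas 1 and 3, with CXCR3 at 400 and 421, had only 21.2 and 19.1 of TBX21, and Boxer lymphomas 13.6 to 19.8. Controls had more TBX21, at 63.9 to 138, with CXCR3 at 133 to 186. The part of TBX21 in the CXCR3 values was not tested.

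Cell division genes were higher in all 6 lymphomas than in any control when summed. The 7 found of 8 listed summed to 13457 to 34002 normalised reads in lymphomas and 2222 to 2614 in controls, and 7 of 7 rose. The part of cell division in the receptor values was not tested. When the libraries were scaled to 5 T cell genes (CD3D, CD3E, CD3G, CD2 and LCK), an alternative chosen after seeing the data, 2 receptors still passed upwards and 5 downwards in all lymphomas against controls.

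Genes whose profile was nearest to a receptor's were found by the root mean square difference of centred log2 values over the 9 libraries, among 9383 genes with a symbol and a mean of at least 50 normalised reads. The nearest to CCR9 were PMCH (0.50), the precursor of melanin-concentrating hormone, KCTD16 (0.60) and CENPA (0.63), the centromeric histone. Next to CCR4 stood CTSW (0.47), a lymphocyte cathepsin, BRI3BP (0.53) and the toll-like receptor gene TLR4 (0.54). The genes nearest to CXCR5 were NUAK2 (0.90), NR3C2 (0.96), the mineralocorticoid receptor, and CD38 (0.97). For scale, the median difference over all these genes was 2.57 from CCR9, 1.55 from CCR4 and 2.80 from CXCR5. The nearest of 9383 genes lie below that median by construction. Since values were centred over lymphomas and controls together, the difference between these groups enters the match.

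For CCR6 the nearest were NR3C2 (0.29), SLC26A11 (0.44) and the integrin gene ITGA1 (0.45). For S1PR1 they were NRIP1 (0.58), a nuclear receptor corepressor, CCR6 itself (0.61) and ATXN1 (0.66). CCR7 lay closest to TTC21A (0.16), DUS4L (0.19) and LRP10 (0.19), and CXCR4 to GXYLT1 (0.22), TMEM156 (0.26) and MSL2 (0.26). CXCR3 was nearest to TEN1 (0.40), ABHD14A (0.46) and CHST2 (0.47).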

How the data were processed

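Poly(A)-selected RNA was sequenced, per the labels' protocols. TopHat2, HTSeq and DESeq2 and the genome build CanFam3.1 are named in the submitters' processing notes, and versions and strandedness are not given in the sources used here. The deposited values are a signal, in that the authors scaled whole reads by a single size factor for each library: 100% of values were whole multiples of 1 read within 0.01 reads, so reads could be recovered. Genes that reached 10 in 3 or more compared libraries were tested with limma 3.58.1 (R 4.3.3) on log2(value + 1), with a mean-variance trend and the compared libraries only. Against the controls, genes under 10 in every control were tested only because lymphomas reached that level, which by itself favours a rise. Groups came from the sample titles. The members, lists and tests were chosen with earlier results of these data known. Named were all 8 receptors, up to 4 list genes per direction with the smallest p, genes for context chosen after their values were seen, and the 3 nearest profiles per receptor. The methods were tested on simulated data. The alternatives were other scaling, filters (none, 50), pseudocounts (0.5, 5), edgeR 4.0.16, DESeq2 1.42.0, each library left out, a replicate block, sex, age, a 3-group fit, other-breed lymphomas 1 and 2 left out and scaling to 5 T cell genes. Lengths and sequences were not used here. Some list genes enter the counts and medians and are not reported here. The symbols CD4, BCL6, KLF2, CCL21, CXCL9 and CXCL11 were not analysed here.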

Additional observations from a re-analysis of the deposited data

Results flagged for a closer look

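CCR4 in other-breed lymphoma 2, at 241 normalised reads, stood apart from the other 5 lymphomas, which had 1018 to 2263. Its gap to the next library was 0.643 of the whole range of the 6 lymphomas on the log2 scale, above Dixon's 95% critical value of 0.625 for 6 samples. Chance alone flags about 1 in 20 groups, and 8 receptors were examined. In the same library CXCR5 (3.94), S1PR1 (40.2), CCR6 (19.7), CCR9 (6112) and CXCR4 (4459) were the lowest of the 6 lymphomas, and CXCR3 (742) the highest.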

How the results depend on the processing

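Of 590 recomputed fold changes of single receptors, 565 kept their direction and their side of the threshold. Of 148 recomputed counts of receptors that passed, 145 stayed within 1.5 times. That rule is lenient for counts this small, since 5 to 4 and 2 to 3 are within it. The 148 include Boxer against other-breed lymphomas, where no receptor passed in any alternative. In all lymphomas against controls the receptors higher and lower numbered 1 and 4 with age in the model, and 1 to 2 and 5 when 1 library was left out (1 without control 2). Scaled to 5 T cell genes, they numbered 1 and 5 in other-breed lymphomas against controls, where CXCR3 had an adjusted p of 0.0524 and the median of all genes shifted to -0.22 from -0.03, and 2 and 4 in Boxer lymphomas, where CXCR4 had an adjusted p of 0.0890. Directions turned only for small differences. CXCR3 in Boxer lymphomas against controls was -0.00307 with TMM scaling and -0.52 to 0.41 when 1 library was left out. CCR9 in Boxer against other-breed lymphomas was -0.0615 by edgeR, -0.0513 by DESeq2 and -0.17 to 0.89 when 1 library was left out, and CCR4 -0.37 to 1.24. The causes were not tested. The edgeR test on recovered reads called 3100 genes higher and 2290 lower in all lymphomas, DESeq2 4074 and 2676, and limma 3092 and 2504. Over all genes, age gave 1048 and 885, scaling to T cell genes 2030 higher, and leaving out 1 library 1866 to 3291 higher and 1194 to 2605 lower. Leaving out 1 library gave 2108 to 2570 and 1238 to 2821 in Boxers, against 3256 and 2706 with all, and 1007 to 2155 and 617 to 2464 in other breeds, against 2265 and 2084 with all. Same-numbered libraries shared only a number (correlations of deviations -0.14 to 0.10). With the replicate block the receptors higher and lower stayed at 2 and 5 in all lymphomas, CXCR4 in Boxers had an adjusted p of 0.0505 and CCR4 in other breeds 0.0194.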

Other observations

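In the RefSeq gene order of assembly UU_Cfam_GSD_1.0, the nearest tested gene on each side of 7 receptors was taken. Those of CXCR4 were not analysed here. Genes that were not tested were skipped, so the genes named need not be immediate neighbours. They did not follow 1 pattern in the 6 lymphomas against the 3 controls, a comparison chosen after the receptor values were seen. Beside CCR9 stand CXCR6, another chemokine receptor, at 91.9 ± 79.3 normalised reads in lymphomas and 145 ± 22.1 in controls (SD, n = 6 and n = 3, limma adjusted p = 0.198), and SLC6A20, an amino acid transporter. SLC6A20 had 0 reads in the controls and 122 ± 107 normalised reads in the lymphomas (SD, n = 6), at least 116-fold higher from reads pooled over each group with 3 reads set for the controls (limma adjusted p = 5.59e-04). Beside CCR4, GLB1, a lysosomal galactosidase, rose by 1.51 ± 0.24 (SE, adjusted p = 0.00146) and CNOT10 by 0.62 (adjusted p = 0.0144). Beside CCR6, which fell, AFDN, a scaffold of cell junctions, rose to 2121 ± 897 normalised reads in lymphomas, against 13.6 ± 8.45 in controls (log2 fold change 7.22 ± 0.55, adjusted p = 2.77e-05), while RPS6KA2 did not pass (adjusted p = 0.177). Beside CCR7, SMARCE1, a chromatin remodelling subunit, rose by 0.498 (adjusted p = 0.0145), and beside CXCR3, OGT, a sugar transferase, fell by 0.959 (adjusted p = 0.0248). On their other sides, TNS4 for CCR7 and NHSL2 for CXCR3 did not pass (limma adjusted p = 0.108 and 0.797). The neighbours of CXCR5, BCL9L (-0.90) and DDX6 (-0.41), and of S1PR1, RNPC3 (-0.37) and DPH5 (0.34), did not pass.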
